A study of Arabidopsis thaliana with 14 samples.

Results

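Roots of the pho1-7 hpr1-6 mutant were compared with roots of wild-type Col-0 across all genes, to describe how far this line still differed from wild type. The comparison used 4 of the 14 samples of the series, 2 per genotype, chosen by their labels. All plants were Arabidopsis thaliana of the Columbia background, grown for 3 weeks in pots of clay granules under long days. The labels give the tissue as roots, while their source field says seedlings. The pho1-7 allele carries a T-DNA insertion in PHO1 that removed exon 2. The line pho1-7 hpr1-6 carries this allele together with hpr1-6, a T-DNA allele of HPR1, and GEO's labels write that allele as hpr1-5. It was obtained by crossing, and hpr1-6 plants with an intact PHO1 were not analysed here, so the part of each allele in a difference from Col-0 cannot be told apart from this comparison alone. Values of pho1-7 and of pho1-7 tex1-4, both with 2 pot samples and both sharing the Col-0 controls, are given beside the main values. A separate experiment compared tex1-4 with Col-0 on agar plates, with 3 samples each. The labels give the plate roots as 10 days old, younger than the pot roots, and the study's methods give a shorter time on plates.

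PHO1 exports inorganic phosphate into the root xylem, and without it the shoot runs short of phosphate while the root keeps its supply. Phosphate-starved shoots send the microRNA miR399 down the phloem to the root, where it directs the removal of PHO2 mRNA. PHO2 encodes a ubiquitin-conjugating enzyme that marks phosphate transporters and PHO1 for degradation. HPR1 and TEX1 are core subunits of the THO complex, which with TREX couples transcription to RNA processing and export.

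The sequences below are shown because PHO2 and the kelch gene AT3G27150 were among the clearest falls, and each holds a stretch that matches a microRNA. The seed of each microRNA, bases 2 to 8, is in capitals, and in each target stretch the capitals are bases that pair with the microRNA. All sequences are from RefSeq (TAIR10.1), and a match is a description of letters.
miR399b: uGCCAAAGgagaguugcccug
miR399d: uGCCAAAGgagauuugccccg
PHO2, chr2:14282106-14282126, minus strand: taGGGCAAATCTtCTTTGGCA
PHO2, chr2:14281973-14281993, minus strand: taGGGCAtATCTCCTTTGGCA
PHO2, chr2:14281884-14281904, minus strand: ttGGGCAAATCTCCTTTGGCA
PHO2, chr2:14281827-14281847, minus strand: tcGaGCAAATCTCCTTTGGCA
PHO2, chr2:14281770-14281790, minus strand: taGaGCAAATCTCCTTTGGCA
miR2111a-5p: uAAUCUGCauccugagguuua
AT3G27150, chr3:10010764-10010784, minus strand: gAAACCTaAGGATGCAGATTA
The 5 PHO2 stretches lie in a non-coding exon and have 2 or 3 mismatches to miR399d, with a G:U pair counted as a mismatch. The microRNAs miR399b and miR399d share their seed. The stretch in AT3G27150 lies in the coding region and has 2 mismatches to miR2111a-5p.

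Depth was similar in the 4 libraries, with 61830415 and 70019214 reads on genes in pho1-7 hpr1-6 and 70789425 and 66355137 in Col-0. Replicates of a group differed by more than sampling noise (chi-square per degree of freedom of 11.3 in Col-0 and 18.3 in pho1-7 hpr1-6). The text of the series calls them biological replicates. On the first principal component, with 41.4% of the variance over the 8 pot samples, pho1-7 hpr1-6 and pho1-7 tex1-4 lay together on the side away from Col-0 and pho1-7. The second component (24.8%) separated pho1-7 hpr1-6 from pho1-7 tex1-4. Of 17 tested photosynthesis genes, taken as markers of shoot tissue, 1 rose and the others did not pass the test. No rise was called without either Col-0 replicate or without pho1-7 hpr1-6 replicate 2, and 2 were without pho1-7 hpr1-6 replicate 1. Their summed level was 157 and 277 CPM (reads scaled to a common library size, with TMM factors) in Col-0 and 146 and 332 CPM in pho1-7 hpr1-6, so the groups overlapped. Root hair genes such as LRX1 were present in all samples.

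A gene was called when its adjusted p in edgeR's quasi-likelihood test was under 0.1 and its level changed over 2-fold. By this rule 685 of 21972 genes (3.12%) were higher and 837 (3.81%) were lower in pho1-7 hpr1-6 than in Col-0, 6.93% in either direction. Most changes were moderate, with a median of 2.6-fold among the higher and 2.58-fold among the lower genes, and 39 higher and 36 lower genes changed over 8-fold. The 2 samples of each group did not overlap in 684 of the 685 higher and in all 837 lower genes. The call itself selects such genes, so this count is no separate evidence for them, and the share over all genes is not given here. At any fold change, 25.5% of genes passed the adjusted p upwards and 26% downwards, 51.5% together. Against the same Col-0 samples, pho1-7 had 411 called genes (1.87%), 0.578% of genes higher and 1.29% lower, and pho1-7 tex1-4 had 1304 (5.93%), 2.11% higher and 3.82% lower. Between pho1-7 hpr1-6 and pho1-7, 599 genes (2.73%) were higher and 541 (2.46%) lower, 5.19% together.

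**Figure D1:**
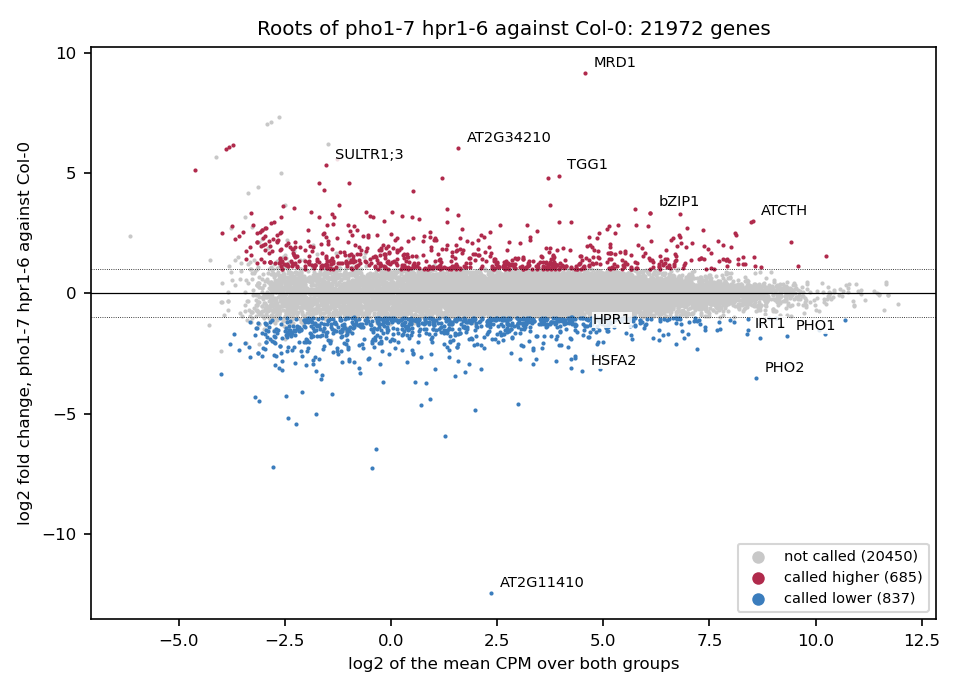
Each point is 1 of 21972 genes, with the log2 of its mean CPM over both groups across and its log2 fold change in pho1-7 hpr1-6 against Col-0 upwards, and dotted lines mark 2-fold. The 685 genes called higher and the 837 called lower are coloured, with MRD1 at the top, AT2G11410 at the bottom and PHO2 the lowest of the well expressed genes labelled.

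The mutated genes were examined first. PHO1 had 1028 and 975 CPM in Col-0 and 312 and 275 CPM in pho1-7 hpr1-6. It fell by 1.77 on the log2 scale (SE 0.09, adjusted p = 2.24e-05, edgeR), and every mutant sample was below Col-0. PHO1 was higher in pho1-7 hpr1-6 than in pho1-7, which had 200 and 188 CPM, by a log2 difference of 0.60 (adjusted p = 0.00234, edgeR), under 2-fold. These counts are sums over the gene and do not separate full-length from truncated transcripts. HPR1 had 35.0 and 34.7 CPM in Col-0 and 11.8 and 12.3 CPM in pho1-7 hpr1-6, a log2 difference of -1.54 (SE 0.06, adjusted p = 1.37e-05, edgeR). About the wild-type HPR1 level was present in the other 2 pot genotypes, so the drop matched the label. TEX1, intact in this line, had 13.7 and 13.1 CPM in Col-0 and 12.8 and 13.1 CPM in pho1-7 hpr1-6 (adjusted p = 0.74, edgeR).

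Among the other 14 genes of the THO complex and its TREX partners, none passed the 2-fold threshold, and DESeq2 called none either. Of the 15 listed genes, 8 passed the adjusted p upwards and 2, HPR1 included, downwards, beside 25.5% and 26% of all genes. ALY1, an RNA export adaptor, had 97.5 and 95.0 CPM in Col-0 and 167 and 159 CPM in pho1-7 hpr1-6 (log2 difference 0.76). The helicase gene UAP56B (AT5G11200) went from 141 and 130 CPM to 211 and 228 CPM (0.70), and THO2 from 95.4 and 94.9 to 132 and 130 CPM (0.46). For all 3 genes the groups did not overlap, which is no separate evidence, because these 3 were chosen after their values were seen.

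PHO2 showed the largest fall among the called phosphate genes of this line. PHO2 had 713 and 722 CPM in Col-0 and 61.0 and 64.8 CPM in pho1-7 hpr1-6, an 11.4-fold drop (log2 -3.51, SE 0.06, adjusted p = 3.23e-07, edgeR). Its level in pho1-7 was 54.8 and 54.0 CPM, and in pho1-7 tex1-4 it was 168 and 173 CPM. Against pho1-7 the gene had a log2 difference of 0.21 (SE 0.06, adjusted p = 0.0304, edgeR), under 2-fold. Precursor reads of miR399 were few, and mature microRNAs were not measured. MIR399b had 8 reads in each pho1-7 hpr1-6 sample, MIR399c 8 and 7, and MIR399d 4 and 4, against no read in either Col-0 sample. Taking 3 reads per library as the floor, MIR399b was at least 2.54-fold, MIR399c at least 2.41-fold and MIR399d at least 1.27-fold higher.

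AT2G34210, which encodes a transcription elongation factor of the Spt5 type, had 0.0995 and 0.0767 CPM in Col-0 and 5.42 and 6.34 CPM in pho1-7 hpr1-6 (log2 6.02, SE 0.28, adjusted p = 1.86e-05, edgeR). It starts 823 bases past the end of the MIR399f hairpin (AT2G34208), on the same strand. Its level was 9.53 and 9.36 CPM in pho1-7 and 0.337 and 0.587 CPM in pho1-7 tex1-4. Whether its reads come from a transcript that begins at the microRNA gene was not tested.

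AT3G27150, the kelch-repeat gene with the miR2111 match shown above, went the same way as PHO2. The precursor gene MIR2111a had no read in Col-0 and 1 and 0 reads in pho1-7 hpr1-6. AT3G27150 had 33.5 and 36.2 CPM in Col-0 and 5.58 and 5.40 CPM in pho1-7 hpr1-6, a 6.35-fold drop (log2 -2.67, SE 0.09, adjusted p = 1.29e-05, edgeR). In pho1-7 it was 7.14 and 6.08 CPM and in pho1-7 tex1-4 15.0 and 14.6 CPM. NLA, a ubiquitin ligase gene known as a target of miR827, had a log2 difference of 0.02 (adjusted p = 0.863, edgeR). AT3G27150 and the microRNA genes MIR399b and MIR399c were chosen after their values were seen.

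**Figure D2:**
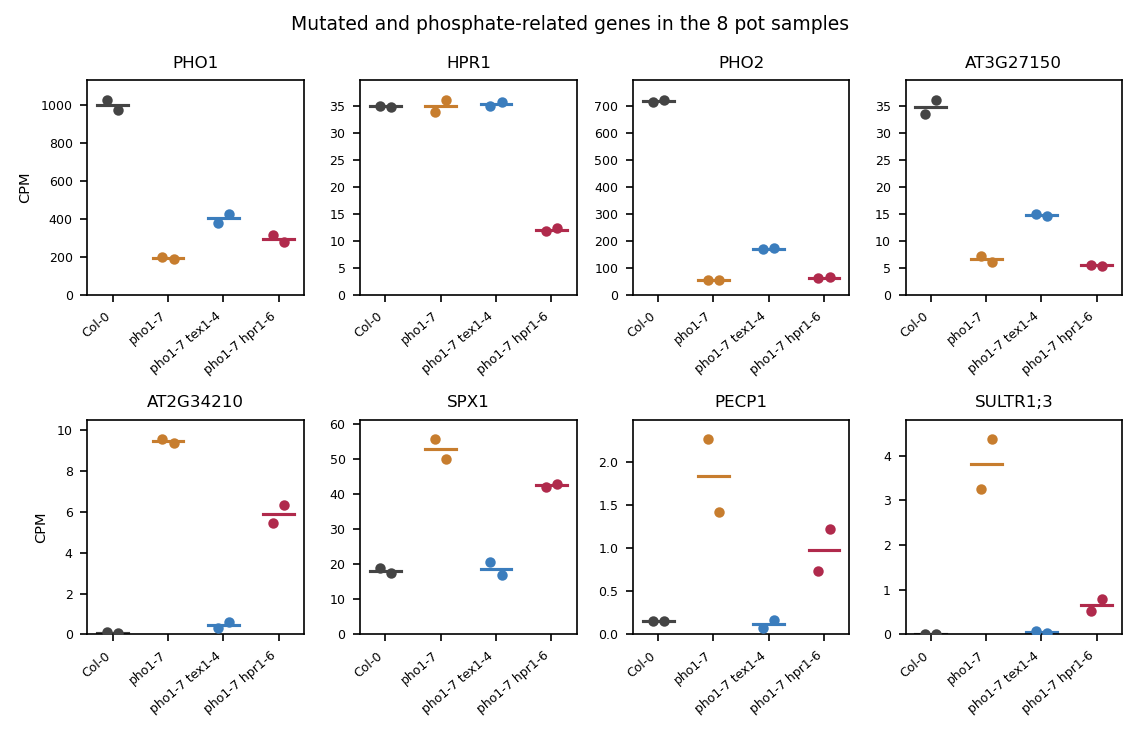
Each panel plots CPM (linear axis from 0) of a gene in the 8 pot samples, a point per sample with a bar at the group mean. PHO2 and AT3G27150 lie low in pho1-7 and pho1-7 hpr1-6, SPX1 and AT2G34210 lie high in both, and HPR1 is low only in the 2 pho1-7 hpr1-6 samples among these 8.

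Of 20 tested genes of phosphate sensing and signalling, 2 rose and 2 fell (20%, beside 6.93% of all genes). At any fold 14 passed the adjusted p, beside 51.5% of all genes. The median log2 difference was 0.09. Of the 2 rises, 1 was MIR399d, with 4 and 4 reads in pho1-7 hpr1-6 and 21 and 20 in pho1-7. Fitting only the 2 compared groups left 19 tested genes, with 1 rise and 2 falls. The phosphate transport list had 1 rise and 1 fall among 14 tested, and the list for phosphate scavenging and lipid remodelling had 2 rises among 24 (14.3% and 8.33%). Without pho1-7 hpr1-6 replicate 2 the transport list had 2 rises. SPX1, which encodes an inositol-polyphosphate-sensing inhibitor of the starvation regulator PHR1, had 18.9 and 17.5 CPM in Col-0 and 42.0 and 43.1 CPM in pho1-7 hpr1-6 (log2 1.22, SE 0.10, adjusted p = 0.000133, edgeR). The pho1-7 samples had 55.7 and 50.2 CPM and the pho1-7 tex1-4 samples 20.7 and 16.9 CPM. ALMT1, a malate channel that releases malate at the root tip, fell from 3.37 and 2.75 CPM to 1.20 and 0.919 CPM (log2 -1.52).

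Other called phosphate genes were weakly expressed. PECP1 (AT1G17710), a phosphatase of phosphocholine and phosphoethanolamine, rose from 0.156 and 0.153 CPM to 0.733 and 1.22 CPM (log2 2.64). PHT1;5, a phosphate transporter, rose from 0.227 and 0.307 CPM to 0.806 and 0.760 CPM, and the purple acid phosphatase gene PAP25 from 0.0426 and 0.0154 CPM to 0.278 and 0.190 CPM (log2 2.92, and 3.79 without Col-0 replicate 1). None of these genes overlapped between groups. In pho1-7, PHT1;5 (0.346 and 0.336 CPM) and PAP25 (0.165 and 0.0611 CPM) were not called against Col-0. Both were called higher in pho1-7 tex1-4, with 0.478 and 0.607 CPM and 0.142 and 0.273 CPM. PHT1;5 was also called higher in tex1-4 on plates (adjusted p = 0.00774, edgeR). PECP1 went the other way, called in pho1-7 (2.26 and 1.42 CPM) and not in pho1-7 tex1-4 (0.0709 and 0.162 CPM). The part of each allele in these rises was not tested.

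Several widely used starvation markers that were high in pho1-7 were not called against Col-0 in pho1-7 hpr1-6. They were chosen after their values were seen, so their differences from pho1-7 are descriptions. SPX1 and PECP1, also high in pho1-7, stayed called. In the sensing list 5 genes rose in pho1-7 and 2 in pho1-7 hpr1-6, in the scavenging and lipid list 3 and 2, and in the transport list 1 and 1. Of all genes, 0.578% rose in pho1-7 and 3.12% in pho1-7 hpr1-6. IPS1, a noncoding RNA that sequesters miR399, had 0.952 and 0.737 CPM in Col-0, 15.9 and 12.8 CPM in pho1-7 and 1.39 and 1.57 CPM in pho1-7 hpr1-6. Its relative AT4 had 169 and 163 CPM in Col-0, 422 and 330 CPM in pho1-7 and 127 and 118 CPM in pho1-7 hpr1-6. Between pho1-7 hpr1-6 and pho1-7 these differed by log2 values of -3.28 for IPS1 (adjusted p = 9.78e-05) and -1.62 for AT4 (adjusted p = 0.000157, edgeR). SPX3 (-1.40), the phosphatase gene PS2 (-1.87) and the galactolipid synthase gene MGD3 (-1.99) also passed that test. Against Col-0, none of these 5 genes was called in pho1-7 hpr1-6, and their log2 differences ran from -0.44 for AT4 to 0.80 for IPS1.

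The element GNATATNC, bound by PHR1, was searched on both strands of the window from 250 bases before to 50 after each gene start, and being a palindrome it reads alike on both. It was present in 6.31% of 21465 windows of tested genes, in 10.6% of those of genes called higher and in 6.21% of those of genes called lower. The scavenging and lipid list held it in 14 of 24 windows and the sensing list in 6 of 20. Among the called phosphate genes it was found for SPX1, MIR399d and PAP25 and not for PHT1;5 and PECP1, which also rose. The 3 matches are shown with the element in capitals, to place it in the genes that rose.
SPX1, chr5:6802293-6802322, plus strand: cagagaaaaaaGGATATTCtaattagaaac
MIR399d, chr2:14443228-14443257, minus strand: gatgtgccagaGAATATGCtttctatacgc
PAP25, chr4:17175996-17176025, minus strand: tatttctattcGAATATTCtttaaaatcca
The microRNA's window is set by its annotated hairpin and not by a measured transcript start.

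Genes of iron acquisition were lower. Of 23 tested, 7 fell (30.4%, beside 3.81% of all genes), with a median log2 difference of -0.79. Downwards 15 passed the adjusted p and upwards 1, beside 26% and 25.5% of all genes. IRT1, the main ferrous iron importer of the root, had 431 and 581 CPM in Col-0 and 183 and 131 CPM in pho1-7 hpr1-6 (log2 -1.69, SE 0.20, adjusted p = 0.000533, edgeR). FRO2, the ferric chelate reductase that works with it, had 435 and 578 CPM against 202 and 147 CPM (-1.54). Both genes were also low in pho1-7, with 143 and 124 CPM for IRT1 and 146 and 132 CPM for FRO2. The regulators MYB72 and MYB10 fell as well, MYB72 from 5.98 and 6.57 CPM to 0.879 and 0.760 CPM (log2 -2.93). The nicotianamine synthase genes NAS1 (-1.30) and NAS2 (-1.09) and the mitochondrial reductase gene FRO3 (-1.45) made up the 7. FIT, the factor that drives IRT1 and FRO2, had 125 and 145 CPM against 91.4 and 67.7 CPM and passed the adjusted p only. Leaving out each sample in turn, the list's count of falls ran from 6 to 10, with 1 rise without pho1-7 hpr1-6 replicate 1. In pho1-7 10 members fell, with a median of -0.71, and in pho1-7 tex1-4 7 fell and 1 rose, with a median of -0.63. Of all genes, 1.29% fell in pho1-7 and 3.82% in pho1-7 tex1-4.

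The related coumarin genes, whose products mobilise iron outside the root, showed 4 falls among 6 (66.7%, beside 3.81% of all genes). All 6 passed the adjusted p downwards, beside 26% of all genes. CYP82C4, a hydroxylase of this pathway, had 61.7 and 99.7 CPM in Col-0 and 28.1 and 15.0 CPM in pho1-7 hpr1-6 (log2 -1.90, adjusted p = 0.00316, edgeR). The oxygenase genes AT3G12900 (-1.72) and AT3G13610 (-1.48) and the exporter gene ABCG37 (-1.07) followed. ABCG37 was not called without Col-0 replicate 2 (-0.93) or without pho1-7 hpr1-6 replicate 2 (-0.92), and the count was then 3 in each case. CYP82C4 was higher than in pho1-7, which had 10.1 and 9.31 CPM, by 1.16 (adjusted p = 0.038). Of 7 iron storage genes none was called. The iron transporter gene AT3G25190 of that list had 208 and 221 CPM against 179 and 138 CPM.

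Other nutrient genes were mixed, with 13% of the nitrate and ammonium, 11.1% of the sulfate and 14.3% of the zinc list called, beside 6.93% of all genes. NRT2:1, the high-affinity nitrate transporter, had 89.4 and 136 CPM in Col-0 and 35.5 and 27.1 CPM in pho1-7 hpr1-6 (log2 -1.84, SE 0.22, adjusted p = 0.000579, edgeR), and was similarly low in both other mutant lines. Of 23 tested nitrate and ammonium genes, 2 rose and 1 fell, and 2 fell without Col-0 replicate 1. BT2, a BTB-TAZ protein gene that responds to nitrate and sugar, rose from 88.7 and 72.7 CPM to 644 and 615 CPM (log2 2.96, SE 0.11). BT2 was also high in pho1-7 tex1-4, at 476 and 426 CPM, and lower in pho1-7, at 164 and 152 CPM. HRS1, a repressor in nitrate and phosphate signalling, went from 125 and 132 CPM to 280 and 238 CPM, close to the 2-fold line (1.01), and was not called without Col-0 replicate 1 (0.98) or pho1-7 hpr1-6 replicate 1 (0.89), which left 1 rise in the list.

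Of 18 sulfate genes 1 rose and 1 fell, and 2 fell without pho1-7 hpr1-6 replicate 2. SULTR1;3, a sulfate transporter of the phloem, had 0.0142 and 0.0154 CPM in Col-0, 0.527 and 0.792 CPM in pho1-7 hpr1-6 and 3.25 and 4.37 CPM in pho1-7 (log2 5.31 against Col-0, SE 0.54, adjusted p = 0.000309, edgeR). It was 1 read per Col-0 sample and below the pho1-7 level, with a log2 difference of -2.53 (adjusted p = 0.000427). LSU2, named for its response to low sulfur, fell from 16.2 and 15.5 CPM to 7.34 and 5.86 CPM. Of 14 zinc transport genes 2 fell, ZIP5 and MTPA1, and neither was called without Col-0 replicate 2 or without pho1-7 hpr1-6 replicate 1. In the latter case 1 other gene of the list was called.

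Of the 18 listed genes of sugar status and transport 5 rose and 1 fell (33.3%, beside 6.93% of all genes), with a median log2 difference of 0.35. SEN1, induced by darkness and starvation, had 18.8 and 14.4 CPM in Col-0 and 121 and 110 CPM in pho1-7 hpr1-6 (log2 2.80, SE 0.20, adjusted p = 7.15e-05, edgeR). The trehalose-phosphate synthase-like genes TPS8 and TPS11, which are repressed by sugar, went from 91.6 and 75.8 CPM to 480 and 459 CPM and from 36.6 and 30.8 CPM to 156 and 176 CPM. For SEN1, TPS8 and TPS11 the groups did not overlap, which the call itself selects for. TPS9 (log2 1.23) and the raffinose synthase gene DIN10 (1.15) rose too. SWEET11, a sucrose exporter, fell (-1.23), and ASN1, the dark-inducible asparagine synthetase, had 184 and 162 CPM against 180 and 191 CPM. Leaving out each sample gave 5 or 6 rises, and 2 falls without pho1-7 hpr1-6 replicate 1. At any fold change, 8 members passed the adjusted p upwards and 2 downwards in pho1-7 hpr1-6, beside 25.5% and 26% of all genes. In pho1-7 1 member of the list rose and 1 fell, and in pho1-7 tex1-4 1 rose. Of all genes, 0.578% rose and 1.29% fell in pho1-7, and 2.11% rose in pho1-7 tex1-4.

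bZIP1, a transcription factor of the low-energy response, had 12.7 and 11.7 CPM in Col-0 and 127 and 123 CPM in pho1-7 hpr1-6 (log2 3.35, SE 0.17, adjusted p = 2.11e-05, edgeR). It had 32.1 and 27.3 CPM in pho1-7 and 16.2 and 10.9 CPM in pho1-7 tex1-4. AT5G49448, a locus that shares its count in every sample with bZIP1, was listed separately and is not a second gene. ATCTH, a zinc finger protein gene, rose from 79.4 and 85.3 CPM to 663 and 649 CPM (log2 2.99, SE 0.08, adjusted p = 2.72e-06), and AT3G15450, a gene annotated as aluminium-induced, from 664 and 559 CPM to 1833 and 1792 CPM. A trio of kelch-repeat genes rose together, of which AT3G59940 had 7.42 and 10.1 CPM in Col-0 and 106 and 91.3 CPM in pho1-7 hpr1-6 (log2 3.49). AT2G44130 (2.98) and AT1G80440 (2.69), chosen after their values were seen, were the others. In pho1-7 tex1-4 AT3G59940 had 5.85 and 5.12 CPM, and in pho1-7 it had 23.1 and 23.9 CPM.

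**Figure D3:**
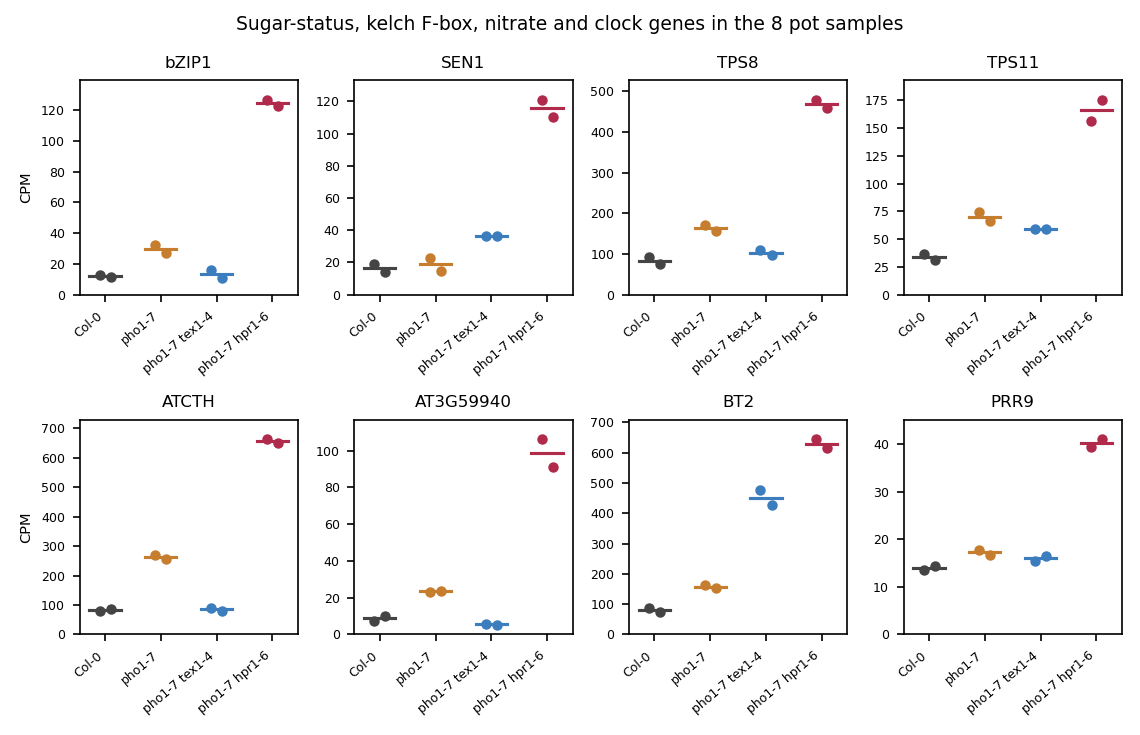
Each panel plots CPM (linear axis from 0) of a gene in the 8 pot samples, a point per sample with a bar at the group mean. In all 8 panels the pho1-7 hpr1-6 samples are the highest, with bZIP1 at 127 and 123 CPM against 12.7 and 11.7 CPM in Col-0.

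Clock genes showed 2 rises among 20 (10%, beside 6.93% of all genes), with a median of -0.01. PRR9, a morning repressor, had 13.5 and 14.5 CPM in Col-0 and 39.4 and 41.0 CPM in pho1-7 hpr1-6 (log2 1.52, SE 0.07, adjusted p = 2.02e-05, edgeR). GI, which links the clock to flowering, had 13.9 and 15.5 CPM against 32.9 and 31.0 CPM (1.12). Both were apart from Col-0 in all samples, which the call itself selects for. Harvest time was not stated, so a part of sampling time was not tested. Among 8 genes of the unfolded protein response 1 rose (12.5%). This was BIP3, a chaperone of the endoplasmic reticulum, from 0.540 and 0.583 CPM to 3.69 and 5.07 CPM (2.96). Of 11 genes of mitochondrial stress 1 rose and 2 fell (27.3%). NDA1, an alternative dehydrogenase, rose from 0.185 and 0.138 CPM to 0.879 and 0.871 CPM (2.42). GSTU24, a glutathione transferase gene, fell from 56.1 and 55.0 CPM to 23.7 and 18.4 CPM (-1.40). The mitochondrial ATPase gene BCS1 fell from 37.3 and 22.6 CPM to 6.74 and 14.0 CPM (-1.54), and was not called without Col-0 replicate 1 (-1.12). Without pho1-7 hpr1-6 replicate 1, 2 members of the list rose, and without replicate 2 of that line the value of BCS1 was -2.15.

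Heat shock genes were lower in this line, but the count rested on single libraries. Of 12 tested, 8 fell (66.7%, beside 3.81% of all genes), with a median log2 difference of -1.70. HSFA2, the heat-inducible activator, had 53.6 and 28.1 CPM in Col-0 and 2.61 and 6.18 CPM in pho1-7 hpr1-6 (log2 -3.23, SE 0.67, adjusted p = 0.00668, edgeR). The small heat shock protein genes HSP17.6II, HSP23.6-MITO and HSP17.4 were all below 2 CPM, and none of these 3 was called without Col-0 replicate 1 or pho1-7 hpr1-6 replicate 1. HSFA2 remained called and had -3.97 without pho1-7 hpr1-6 replicate 2. Without Col-0 replicate 1 the count was 1, without pho1-7 hpr1-6 replicate 1 it was 1, and without pho1-7 hpr1-6 replicate 2 it was 5. The summed level of the list was 391 and 251 CPM in Col-0 and 181 and 214 CPM in pho1-7 hpr1-6.

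Of 19 immune genes 4 fell (21.1%, beside 3.81% of all genes), with a median log2 difference of -0.12. Upwards 3 passed the adjusted p and downwards 7, beside 25.5% and 26% of all genes. PR5 and BGL2 (also called PR2), both markers of salicylate signalling, had 1.85 and 7.60 CPM and 3.03 and 12.1 CPM in Col-0. In pho1-7 hpr1-6 PR5 had 0.0440 and 0.111 CPM (log2 -5.92, SE 0.86) and BGL2 0.220 and 0.301 CPM (-4.85, SE 0.83). In both genes Col-0 replicate 2 was the higher, and without Col-0 replicate 2 the differences were -4.56 for PR5 and -3.54 for BGL2. Without Col-0 replicate 1 they were -6.60 and -5.52, and without pho1-7 hpr1-6 replicate 2 PR5 had -6.69. Both genes were low in pho1-7 and pho1-7 tex1-4 as well. PAD3, which makes the last step of camalexin synthesis, fell from 20.2 and 21.2 CPM to 10.28 and 9.65 CPM (-1.05). NIMIN1, an interactor of the salicylate regulator NPR1, fell from 1.68 and 1.01 CPM to 0.615 and 0.713 CPM (-1.02). It was not called with a replicate block (-0.98), without a filter (-0.99), or without Col-0 replicate 1 (-0.60), pho1-7 hpr1-6 replicate 1 (-0.92) or replicate 2 (-1.13). Without pho1-7 hpr1-6 replicate 1, 1 gene of the list rose.

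Flavonoid genes fell in 5 of 16 cases (31.2%, beside 3.81% of all genes), at levels near 1 CPM. TT4, the chalcone synthase that opens the pathway, went from 1.01 and 1.35 CPM to 0.117 and 0.238 CPM (log2 -2.73, adjusted p = 0.0235, edgeR), and was not called without pho1-7 hpr1-6 replicate 1 (-2.30). DFR, GSTF12 and TT7, which act later, fell with it, but DFR was not called without Col-0 replicate 2 (-2.19) or pho1-7 hpr1-6 replicate 2 (-2.66), nor GSTF12 without Col-0 replicate 2 (-2.10) or pho1-7 hpr1-6 replicate 1 (-1.81). Without pho1-7 hpr1-6 replicate 2 GSTF12 had -3.28. The count of falls was 2 without Col-0 replicate 2 and 3 without either pho1-7 hpr1-6 replicate. MYB34, an activator of indole glucosinolate synthesis, fell from 51.9 and 53.4 CPM to 23.7 and 25.4 CPM (-1.10, SE 0.07, adjusted p = 3.98e-05, edgeR). It was the 1 called of the 15 indole genes (6.67%), and 12 passed the adjusted p downwards, beside 26% of all genes. Among 12 aliphatic genes 2 fell (16.7%), AOP2 (-1.90) and FMO GS-OX1 (-1.21), the latter not called without pho1-7 hpr1-6 replicate 2 (-0.99).

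The myrosinase genes TGG1 and TGG2, whose products break glucosinolates down, were among the largest rises. TGG1 had 0.881 and 1.14 CPM in Col-0 and 21.4 and 38.5 CPM in pho1-7 hpr1-6 (log2 4.89, SE 0.66, adjusted p = 0.000993, edgeR), and TGG2 0.753 and 1.06 CPM against 18.2 and 31.8 CPM (4.79). In both genes the groups did not overlap, which the call itself selects for. The summed shoot markers were 146 and 332 CPM in the same pho1-7 hpr1-6 samples and 157 and 277 CPM in Col-0, and their median log2 difference was 0.48. The chlorophyll-binding protein gene LHB1B1, the 1 called of 17, had 0.185 and 0.307 CPM in Col-0 and 0.703 and 1.95 CPM in pho1-7 hpr1-6. In pho1-7 tex1-4 the sums were 28.3 and 223 CPM with 2.00 and 8.88 CPM of TGG1. In pho1-7 they were 277.2 and 236.5 CPM with 5.34 and 6.46 CPM of TGG1. The sample with more shoot markers had more TGG1 in Col-0, pho1-7 hpr1-6 and pho1-7 tex1-4, and less in pho1-7. The part of shoot tissue in the rise was not tested. PYK10, the beta-glucosidase of the root's endoplasmic reticulum bodies, fell from 1721 and 1524 CPM to 558 and 559 CPM (-1.54, SE 0.11, adjusted p = 7.49e-05).

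Jasmonate genes showed 3 rises and 2 falls among 25 (20%, beside 6.93% of all genes). The falls were VSP1 (-1.31) and CYP94C1 (-1.65). No rise was called without Col-0 replicate 1 or pho1-7 hpr1-6 replicate 2, 2 were without Col-0 replicate 2 and 4 without pho1-7 hpr1-6 replicate 1. Of 23 abscisic acid and drought genes 1 rose and 2 fell (13%). Among the falls was KIN1, a cold- and drought-induced gene, from 3.14 and 5.23 CPM to 1.02 and 1.09 CPM (log2 -1.98). The other fall, KIN2 (-1.21), was not called without Col-0 replicate 2 (-0.89) or pho1-7 hpr1-6 replicate 1 (-0.81). The rise, of the transcription factor gene NAC019 (1.33), was not called without either Col-0 replicate (1.32 and 1.34) or without pho1-7 hpr1-6 replicate 2 (0.88). Leaving out each sample gave 0 to 2 rises and 1 to 3 falls, with 3 falls and no rise without Col-0 replicate 1, and 2 rises and 1 fall without Col-0 replicate 2. Suberin genes fell in 2 of 18 cases (11.1%), MYB39 (-2.27) and the fatty acid reductase gene FAR5 (-1.26). MYB39 had -3.46 without pho1-7 hpr1-6 replicate 1 and -1.66 without its replicate 2. CASP5, a Casparian strip scaffold, rose in the endodermis list of 13, from 0.270 and 0.261 CPM to 0.733 and 0.618 CPM, and 1 gene of that list fell without pho1-7 hpr1-6 replicate 1. FLC, the repressor of flowering, had 0.611 and 0.522 CPM in Col-0 and 0 and 0.0951 CPM in pho1-7 hpr1-6 (-3.58, SE 0.95, adjusted p = 0.0182, edgeR). These are 0 and 6 reads in the mutant against 43 and 34 in Col-0, and the fitted value was -2.55 without pho1-7 hpr1-6 replicate 1 and -8.30 without its replicate 2, where the remaining sample has no read. FLC was the 1 called of the 7 genes of its list (14.3%), whose median log2 difference was -0.56. Of these, 6 passed the adjusted p downwards, beside 26% of all genes. FLC had 21 and 80 reads in pho1-7 and 0 and 1 in pho1-7 tex1-4. On plates its log2 difference in tex1-4 against Col-0 was -5.07.

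In 9 lists no member was called by edgeR or by DESeq2. They cover iron storage, water channels, ethylene, auxin, low oxygen, root hairs, xylem, meristem and the small RNA machinery, with 145 genes tested. Of these, 70 had an unadjusted p under 0.05, against 51.1% of all genes, and the largest log2 difference was 0.96. With 1 sample left out, single members passed: 1 ethylene gene without Col-0 replicate 2 or pho1-7 hpr1-6 replicate 2, 1 auxin gene without Col-0 replicate 2 or pho1-7 hpr1-6 replicate 1, 1 water channel gene without Col-0 replicate 2 or either pho1-7 hpr1-6 replicate, and 1 low-oxygen gene, ADH1, without pho1-7 hpr1-6 replicate 1. PIP2A, the most abundant water channel gene of its list, had 2419 and 2704 CPM in Col-0 and 3152 and 2317 CPM in pho1-7 hpr1-6. The auxin carrier gene AUX1 had 244 and 243 CPM against 239 and 228 CPM, and AGO1, which carries microRNAs, 328 and 325 CPM against 336 and 307 CPM. ADH1, the low-oxygen alcohol dehydrogenase, had 222 and 221 CPM against 128 and 106 CPM (log2 -0.93), and was called without pho1-7 hpr1-6 replicate 1 (-1.07).

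**Figure D4:**
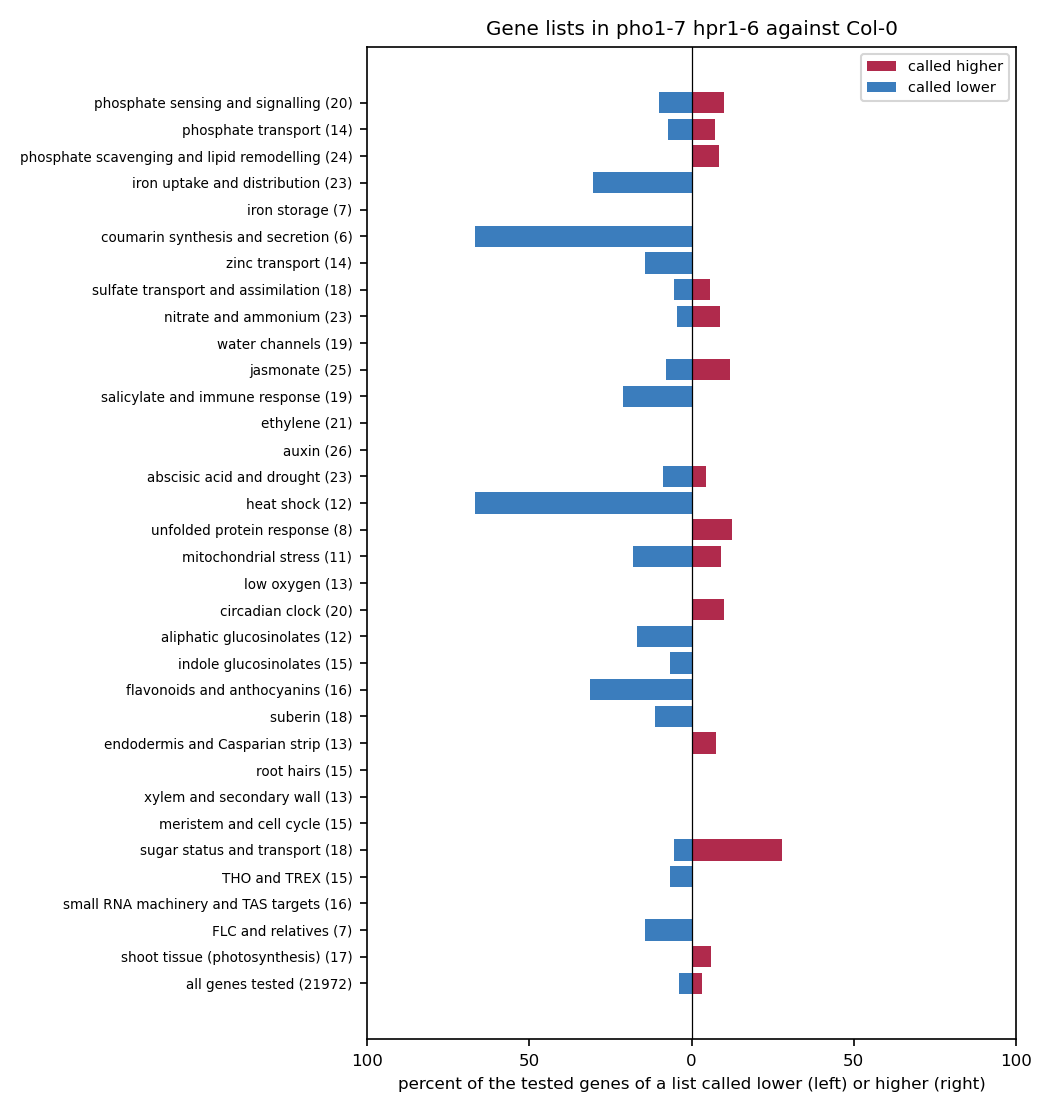
Bars show, for each gene list with its number of tested genes in brackets, the percent of genes called higher (right) and lower (left) in pho1-7 hpr1-6 against Col-0, with all 21972 genes as the lowest bar. Coumarin, heat shock, flavonoid and iron uptake lists reach furthest to the left and sugar status furthest to the right.

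The largest rise and the largest fall with at least 5 CPM in the higher group were MRD1 and AT2G11410, neither on a list. MRD1 had 0.0853 and 0.0767 CPM in Col-0 and 46.8 and 47.7 CPM in pho1-7 hpr1-6 (log2 9.15, SE 0.95, adjusted p = 0.00033, edgeR). It had 3.07 and 15.3 CPM in pho1-7, with its samples apart by several fold, and 45.2 and 45.2 CPM in pho1-7 tex1-4. In the separate plate experiment, tex1-4 differed from Col-0 by a log2 value of 9.01 (adjusted p = 5.16e-07). AT2G11410, annotated as a pseudogene, had 9.95 and 10.5 CPM in Col-0 and no read in either pho1-7 hpr1-6 sample, at least 209-fold lower with 3 reads per library as the floor. Its level was at most 1 read in each sample of pho1-7 and pho1-7 tex1-4, and on plates it had 1051, 987 and 1187 reads in Col-0 and none in the 3 tex1-4 samples, at least 361-fold lower by the same floor.

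AT4G04410, an uncharacterised locus, had 10.13 and 20.5 CPM in Col-0, 13.4 and 14.0 CPM in pho1-7 and 0.601 and 0.650 CPM in pho1-7 hpr1-6 (log2 -4.61, SE 0.38, and -4.02 without Col-0 replicate 2). AT3G46710, a disease resistance gene of the NB-ARC type, had 5.12 and 5.22 CPM in Col-0 against 0.498 and 0.460 CPM (-3.43). AT4G24350, a phosphorylase-family gene (-3.28), and AT1G24420, an acyltransferase gene (-3.15), fell as well, and both were also below Col-0 in pho1-7 and pho1-7 tex1-4. AT4G26288, an uncharacterised gene, rose from 2.13 and 1.76 CPM to 26.2 and 23.7 CPM (3.68).

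In absolute terms the most reads were gained by AT3G15450, AT1G79245, DIN10 and ATCTH and lost by PHO1, AT4G33720, DR4 and PYK10. AT1G79245, annotated as a transcribed pseudogene, had 252 and 263 CPM in Col-0 and 1010 and 1234 CPM in pho1-7 hpr1-6 (log2 2.12). AT4G33720, a gene of the secreted family that includes PR1, had 1743 and 1924 CPM against 698 and 436 CPM (-1.69). DR4, a drought-repressed gene, had 2421 and 2070 CPM against 1103 and 989 CPM (-1.10), and missed the 2-fold threshold without Col-0 replicate 1 (-0.98).

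**Figure D5:**
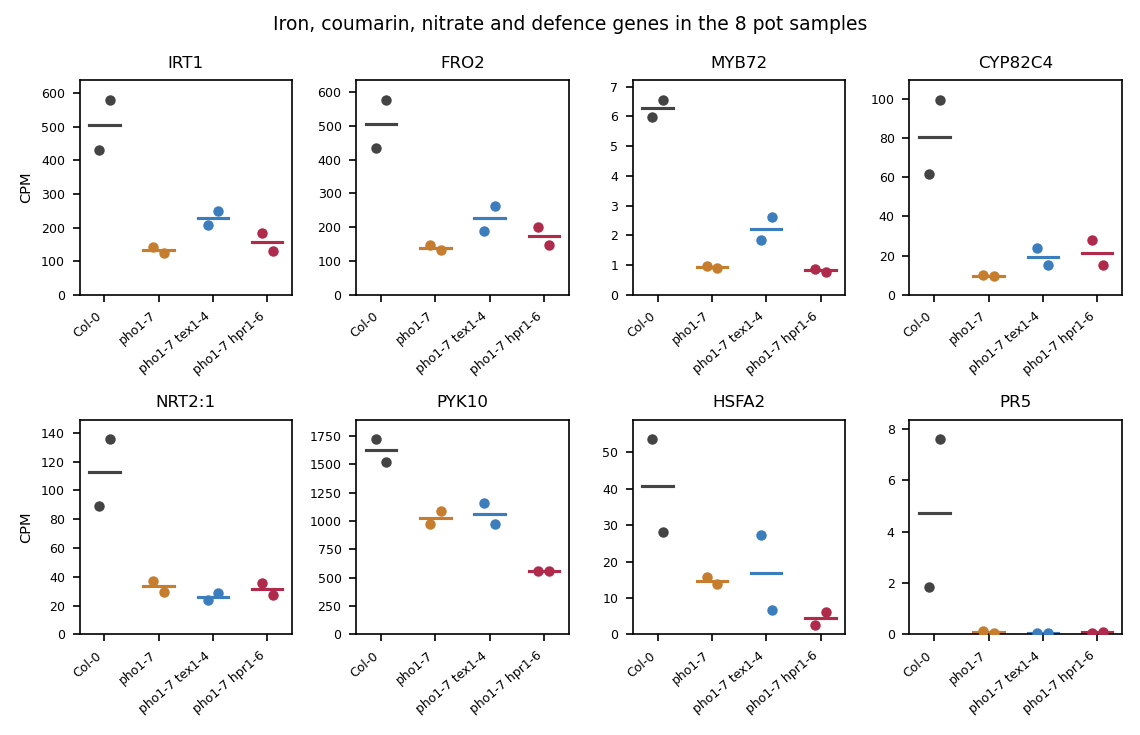
Each panel plots CPM (linear axis from 0) of a gene in the 8 pot samples, a point per sample with a bar at the group mean. Col-0 is highest in all 8 panels, and its 2 samples lie apart for HSFA2 (53.6 and 28.1 CPM) and PR5 (1.85 and 7.60 CPM).

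Families drawn from the reference's product names were counted after their values were seen, so the counts are descriptions. Over all genes, 3.12% rose and 3.81% fell. Among 24 cysteine-rich receptor-like kinase genes 8 fell, with a median log2 difference of -0.56, and among 131 C1 domain genes 18 fell and 2 rose. HSP20-like chaperone genes fell in 7 of 28 cases and cupin genes of the RmlC type in 6 of 24. VQ motif genes, whose products bind WRKY factors, went the other way, with 6 rises among 26. Of 323 ribosomal protein genes 2 rose and 1 fell, and their median was 0.19. Several other counted families held calls in both directions. WRKY genes had 2 rises and 5 falls among 61, bHLH genes 6 and 3 among 100, and kelch-repeat genes 4 and 3 among 65.

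Called genes were spread over the genome. The 5 chromosomes had 6.75% to 7.10% of their tested genes called. Of 40 tested genes around PHO1, 1 was called, and of 40 around HPR1, 4 were called. By gene type, 18 of 52 microRNA genes were called, 9 in each direction (34.6%), against 6.47% of protein-coding genes. The median level of tested microRNA genes was 0.266 CPM, against 17.8 CPM for protein-coding genes. Other weakly expressed types were also called more often, with 23.5% of snoRNA genes, 23.1% of pseudogenes, 18.1% of ncRNA genes and 17.5% of transcribed pseudogenes. A weakly counted gene passes the filter only where enough samples hold reads, so these shares cannot be set directly against that of protein-coding genes. MIR824, the best counted of the called microRNA genes, had 359 and 325 reads in Col-0 and 125 and 123 reads in pho1-7 hpr1-6. MIR163 had 32 and 33 reads against 5 and 3, and MIR398b 107 and 111 reads against 33 and 43. All 3 fell, and they were chosen after their values were seen.

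The plate experiment shares no sample with the pots, and there 2.33% of tested genes were called higher and 3.09% lower, 5.42% in all. Of the 588 higher genes also tested there, 111 were called higher in tex1-4 against Col-0 on plates, which is 18.9% of these genes and 26.1% of the 426 plate genes called higher, while 2.00% of all genes tested in both were called higher. Of 703 lower genes, 164 (23.3%) were called lower on plates, 26.2% of the 627 genes lower there, against 2.95% of all genes. In the opposite direction 20 and 19 genes were called. MRD1 and AT2G11410 were among the shared genes, whereas PHO2 had a log2 difference of 0.18 and bZIP1 of -0.64 on plates.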

How the data were processed

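Strand-specific libraries from polyadenylated RNA were sequenced, and per the labels the pot reads are single end. The authors mapped reads with HISAT2 to TAIR10 and deposited raw counts per gene from HTSeq, without normalization (versions are not given in the sources used here). Rows for unassigned reads were dropped; these were 17.1 to 18.7% of reads in the 4 samples. Whether HTSeq used strand is not given in the sources used here, so overlapping genes cannot be told apart where this is open. Among tested genes with at least 1000 reads summed over the pot samples, 89 share their counts with another.

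The 8 pot samples were fitted together with edgeR 4.0.16 in R 4.3.3 (filterByExpr, TMM, quasi-likelihood, Benjamini-Hochberg over 21972 of 33602 genes), without a block. Plates were fitted separately. Levels are CPM scaled by TMM, and the SE is the log2 difference divided by the square root of F. On simulated data 200 of 200 genes changed 4-fold were recovered, with 2 false calls among 21821 genes. The simulation gave every gene the same spread and left weakly expressed genes unchanged. It therefore does not speak for genes with few reads or with replicates that lie far apart. DESeq2 1.42.0, RLE factors, no filter, fitting only the compared groups, a replicate block, other thresholds, leaving out organelle genes and leaving out each sample were the alternatives. For the pots, p-values measure the spread between the 2 samples of a group, pooled over all pot genotypes in the fit.

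The members and gene lists were chosen with earlier results of these data known. Named genes are the mutated genes, the 8 largest rises and falls of at least 5 CPM without overlap, the 4 largest gains and losses in CPM, up to 4 called members of each list or else its most abundant one, and every called phosphate gene. Not every gene the rule gives is described. Deposited counts of 3′ extensions were not used here. Names and sequences are from RefSeq TAIR10.1.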

Additional observations from a re-analysis of the deposited data

How the results depend on the processing

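The counts of genes higher and lower in pho1-7 hpr1-6 stayed within 1.5 times under every alternative except dropping the fold threshold, which gave 5600 and 5718, and gave 2986 called genes in pho1-7, 12261 in pho1-7 tex1-4 and 9050 between pho1-7 hpr1-6 and pho1-7. DESeq2 called 614 higher and 732 lower. Leaving out each replicate gave 601 to 770 higher and 724 to 884 lower genes. For pho1-7 against Col-0 it gave 252 to 421, with 269 without Col-0 replicate 1, 252 without Col-0 replicate 2 and 252 without pho1-7 replicate 2, against 411. The ranges were 1043 to 1455 for pho1-7 tex1-4 against Col-0, 1059 to 1186 for pho1-7 hpr1-6 against pho1-7 and 881 to 1317 on plates. For samples with the same replicate number, the correlation of deviations was 0.0228 between pho1-7 hpr1-6 and Col-0. It ran from -0.191 to 0.233 over all pairs of pot groups. With 2 samples a group, each pair of groups gives a single value, so these correlations cannot settle whether samples were paired. The replicate block gave 676 higher and 831 lower genes. Of 86 called genes checked one by one, 67 kept their call in every alternative and 19 lost it in at least 1. No called gene changed direction. Among genes not called, the log2 difference changed sign for AGO1 without a filter (0.0157). Leaving out each replicate gave -0.145 to 0.3002 for PIP2A, -0.0583 to 0.3877 for LRX1, -0.087 to 0.043 for AGO1 and -0.0578 to 0.094 for NLA. Causes were not tested. With 2 samples a group, changes under 2-fold in weakly expressed genes, such as the microRNA precursors with under 10 reads, are beyond what the depth resolves.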
